A study of Sus scrofa with 8 samples.

Results

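The endothelial genes of the nasal vasculature were PECAM1, CDH5, VWF, KDR, FLT1, TEK, TIE1, EMCN, CLDN5 and LYVE1, which were chosen by name because their products mark the cells that line blood and lymph vessels. Of the 10 genes, 9 matched an identifier among the 22516 genes of the deposited pig tables, and VWF was not analysed here. All 9 passed the count filter (at least 1 count over the libraries) and were among the 21318 genes tested.

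RNA-seq was performed on the olfactory epithelium (OE), the sheet of the nasal cavity that holds the olfactory sensory neurons, from 4 sows. Each sow was a cross of a Landrace sire with a Rongchang dam, slaughtered during estrus at 8 months. In the androstenone treatment group (2 sows), Boarmate, a commercial spray that contains the boar pheromone androstenone, was applied to the nasal cavity 30 min before slaughter. The control group (2 sows) was given no solution, so neither a vehicle spray nor the handling of spraying was matched. OE from both sides of the nose went into separate libraries, which gave 4 libraries per group. The labels do not give the sow of each library. The libraries were therefore treated as replicates, and p-values measure the spread between libraries, of which each group had only 2 animals.

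The estimated counts summed to 4178330 in control 1 and to between 81580146 and 100685566 in the other 7 libraries. The paper lists clean reads for its Control 1 within the range of its other samples. The low total is therefore one of the deposited counts, and its cause was not tested. The 10 most abundant genes of control 4 held 29.4% of its total, against 6.57% to 9.02% in the other libraries. The summed level of 10 bone genes was 324940 in control 4 and 1839 to 25446 elsewhere, in counts-per-million units (CPM). The labelled tissue was compared with 10 olfactory neuron genes, of which OMP matched no identifier. Of the 9 that matched, 8 passed the count filter of at least 1 count over the libraries. GNG13 was at 0.0327 to 0.205 CPM and RTP1 at 0 to 0.109 CPM over the 8 libraries, and CNGA2 reached 12.2 CPM. These levels rest on 1 to 7 counts per library for GNG13 and on 0 to 11 for RTP1. The list summed to 296 to 361 CPM in the control group and to 289.6 to 401 CPM in the androstenone treatment group, most of it from STOML3 and ANO2. The 9 endothelial genes were detected in all 8 libraries.

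Endothelial cells line every vessel and hold a barrier together through adhesion molecules at their contacts, chiefly VE-cadherin, PECAM-1 and claudin-5. Their growth and quiescence are set by 2 receptor systems on the cell surface, the VEGF receptors and the TIE receptors. In the nose, a dense bed of capillaries and venous sinusoids lies in the lamina propria below the epithelium, which warms the inhaled air and feeds the glands and the epithelium above.

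Levels are given below as CPM, with the library total scaled by the trimmed mean of M-values (TMM), in the order of libraries 1 to 4 of each group. Fold changes are androstenone over control on the log2 scale from edgeR's quasi-likelihood fit. Their standard error (SE) was derived from the fold change and the F statistic of the test. A gene was called where its unadjusted p was below 0.05 and its log2 fold change reached 1 or -1.

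None of the 9 endothelial genes was called between the groups (0 of 9), against 6.42% of all genes tested. Their levels differed far more between libraries of 1 group than between the groups. In each of the 9 genes, the 3 lowest libraries were control 3, androstenone 1 and androstenone 2, an arrangement found in 13.5% of all genes tested. These 3 libraries were picked as the lowest in the mean of the same 9 genes, so this share is a description and no test. The levels of the highest and the lowest library differed by 5.9-fold in PECAM1 and by 37.4-fold in CDH5, with the other 7 genes between them. The mean centred log2 CPM of the 9 genes, that is, the distance of each library from the mean of the 8, was 0.67, 1.04, -2.04 and 1.38 in the control libraries. It was -1.07, -2.42, 1.36 and 1.09 in the androstenone libraries. The SD of this mean was 1.56 within the control group and 1.80 within the androstenone treatment group, and the group means were 0.26 and -0.26 (n = 4 each). In bulk tissue, fewer endothelial cells and less RNA per endothelial cell cannot be told apart.

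**Figure D1:**
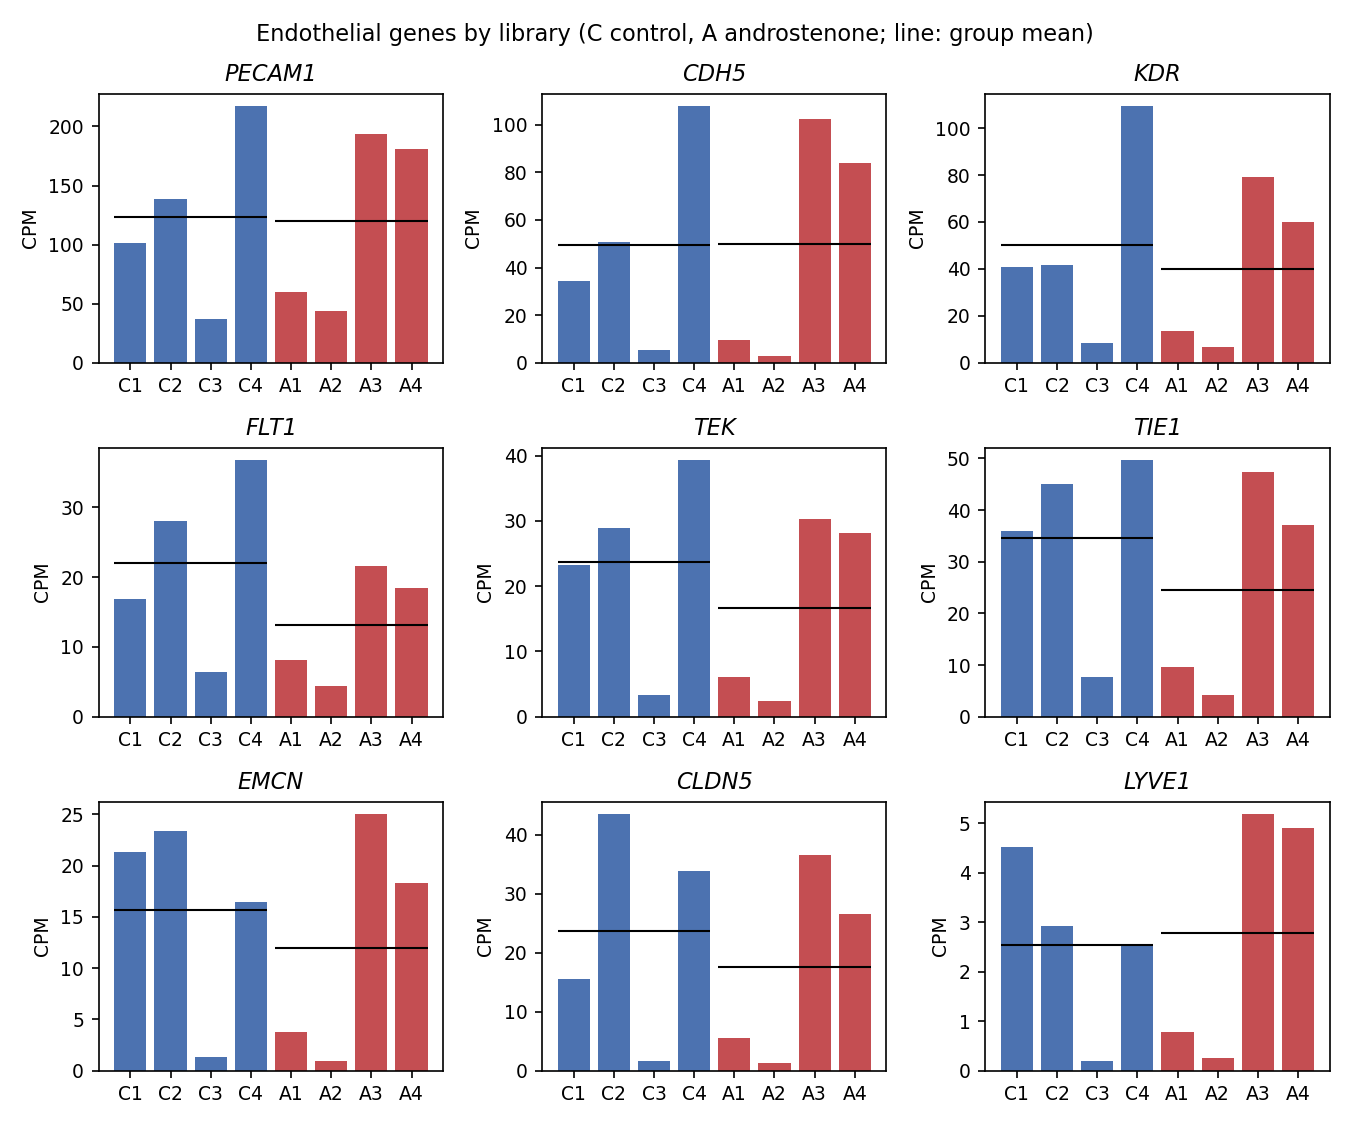
Level of each endothelial gene in CPM (vertical axis, a linear scale from 0 that differs between panels) in the 4 control libraries (C1 to C4, blue) and the 4 androstenone libraries (A1 to A4, red). Bars are single libraries and black lines are group means. C3, A1 and A2 were the 3 lowest libraries in all 9 panels, so that both groups held high and low libraries.

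PECAM1, CDH5 and CLDN5 act at the junctions between endothelial cells. PECAM1 (ENSSSCG00000017277, chromosome 12, 14667643 to 14723296, Sscrofa11.1) encodes a homophilic adhesion molecule at endothelial contacts that platelets and leukocytes also carry. Its level was 102, 138, 36.8 and 217 CPM in the control libraries and 60.1, 43.9, 193 and 181 CPM in the androstenone libraries. The groups overlapped, with the highest and the lowest library both in the control group. The means were 123 ± 75.2 CPM in the control group and 119.6 ± 78.5 CPM in the androstenone treatment group (SD, n = 4 each). The log2 fold change was -0.05 ± 0.62 (SE), with a 95% interval of -1.57 to 1.48 and an edgeR quasi-likelihood p of 0.942 (adjusted p = 0.983).

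CDH5 (ENSSSCG00000035772, chromosome 6, 27108560 to 27142145) encodes VE-cadherin, the cadherin of endothelial adherens junctions. It was at 34.5, 50.8, 5.32 and 107.8 CPM in the control libraries and at 9.57, 2.88, 102 and 84.2 CPM in the androstenone libraries. CDH5 ranged over 20.3-fold within the control group, where CLDN5 (25.9-fold) and LYVE1 (22.8-fold) ranged wider, and over 35.5-fold within the androstenone treatment group. The group means were almost equal, 49.6 ± 43.1 CPM and 49.7 ± 50.9 CPM (SD, n = 4 each). The log2 fold change was 0.0018 ± 1.12 (SE), and its 95% interval of -2.73 to 2.74 covered changes of more than 1 in both directions.

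CLDN5 (ENSSSCG00000041667, chromosome 14, 51161490 to 51162382) encodes claudin-5, the claudin of endothelial tight junctions. Its level was 15.6, 43.5, 1.68 and 33.9 CPM in the control libraries and 5.58, 1.23, 36.6 and 26.7 CPM in the androstenone libraries. Control 2 was the highest library, and control 1 lay between the 3 low libraries and the other 4. Its log2 fold change was -0.44 ± 1.09 (SE), with an adjusted p of 0.886 from edgeR's quasi-likelihood test and an exact two-sided permutation p of 0.629 on the CPM.

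The VEGF receptors KDR and FLT1, which have opposite roles, had the same highest library and the same 3 lowest libraries. KDR (ENSSSCG00000008844, chromosome 8, 41809116 to 41856379) encodes VEGF receptor 2, the main signalling receptor for VEGF-A. Its level was 40.9, 41.5, 8.41 and 109 CPM in the control libraries and 13.3, 6.87, 79.1 and 59.8 CPM in the androstenone libraries. Control 4 was the highest library and androstenone 2 the lowest, and the log2 fold change was -0.33 ± 0.89 (SE, edgeR quasi-likelihood adjusted p = 0.896, exact permutation p = 0.714). FLT1 (ENSSSCG00000009320, chromosome 11, 5620698 to 5797095) encodes VEGF receptor 1, which binds VEGF-A tightly and limits its signal through KDR. It was at 16.8, 28.1, 6.34 and 36.8 CPM in the control libraries and at 8.15, 4.41, 21.6 and 18.4 CPM in the androstenone libraries. FLT1 had the largest fold change and the smallest p of the 9 genes, and its groups still overlapped. The means were 22.0 ± 13.2 CPM and 13.1 ± 8.17 CPM (SD, n = 4 each), and the log2 fold change was -0.75 ± 0.62 (SE) with a 95% interval of -2.27 to 0.78. The edgeR quasi-likelihood p was 0.263 (adjusted p = 0.646), and an exact two-sided permutation test of the CPM gave p = 0.314.

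The receptors of the angiopoietin system also had these libraries as their lowest. TEK (ENSSSCG00000005122, chromosome 1, 195938177 to 196052294) encodes TIE2, the receptor of the angiopoietins. It was at 23.2, 28.9, 3.34 and 39.3 CPM in the control libraries and at 6.01, 2.45, 30.3 and 28.1 CPM in the androstenone libraries. TIE1 (ENSSSCG00000003950, chromosome 6, 167919662 to 167947253) encodes the receptor that pairs with TIE2 and modulates it. It was at 35.9, 45.0, 7.61 and 49.6 CPM in the control libraries and at 9.61, 4.21, 47.4 and 37.2 CPM in the androstenone libraries. In both genes control 4 was the highest library and androstenone 2 the lowest. The log2 fold changes were -0.50 ± 0.88 for TEK and -0.49 ± 0.79 for TIE1 (SE), with edgeR quasi-likelihood adjusted p-values of 0.827 and 0.811 and exact permutation p-values of 0.571 and 0.514.

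EMCN and LYVE1 mark parts of the vascular tree. EMCN (ENSSSCG00000038080, chromosome 8, 120174091 to 120227971) encodes endomucin, a sialomucin of capillaries and veins. Its level was 21.4, 23.4, 1.38 and 16.47 CPM in the control libraries and 3.74, 0.913, 25.0 and 18.3 CPM in the androstenone libraries. Control 4, the highest library of PECAM1, CDH5, KDR, FLT1, TEK and TIE1, was below 4 other libraries in EMCN. EMCN had a log2 fold change of -0.38 ± 1.03 (SE, edgeR quasi-likelihood adjusted p = 0.899, exact permutation p = 0.743). LYVE1 (ENSSSCG00000029886, chromosome 2, 48937357 to 48954206) encodes a hyaluronan receptor of lymphatic endothelium that some tissue macrophages also carry. It was at 4.52, 2.91, 0.198 and 2.53 CPM in the control libraries and at 0.775, 0.246, 5.18 and 4.90 CPM in the androstenone libraries. These levels rest on 22, 267, 19 and 168 counts and on 74, 24, 466 and 492 counts, so LYVE1 carried the widest counting error. LYVE1 had a log2 fold change of 0.19 ± 1.06 (SE, edgeR quasi-likelihood adjusted p = 0.953, exact permutation p = 0.8286).

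Over the 9 genes, 7 had a log2 fold change below 0 and 2 above, and the median was -0.38, against -0.021 over all genes tested. The number with an unadjusted p below 0.05 was 0, against 11.3% of all genes tested. The likelihood ratio test of edgeR and DESeq2 also called 0 of 9, against 9.28% and 6.98% of all genes. No endothelial gene had groups that did not overlap, against 6.53% of all genes tested. The exact two-sided permutation p-values ran from 0.314 to 1, where 4 against 4 libraries allow 0.0286 at the lowest. Each of the 9 intervals covered 0, each reached below -1, and all but that of FLT1 reached above 1, so differences past the cutoff lay inside them. With both control 1, the library with the lowest count total, and control 4 left out, 0 genes were called and the median was 0.012. When counts were summed per sow over the 9 ways in which the libraries of each group can form pairs, 0 genes were called in each. The lowest edgeR p of an endothelial gene in these fits was 0.0348, with a log2 fold change short of the cutoff.

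**Figure D2:**
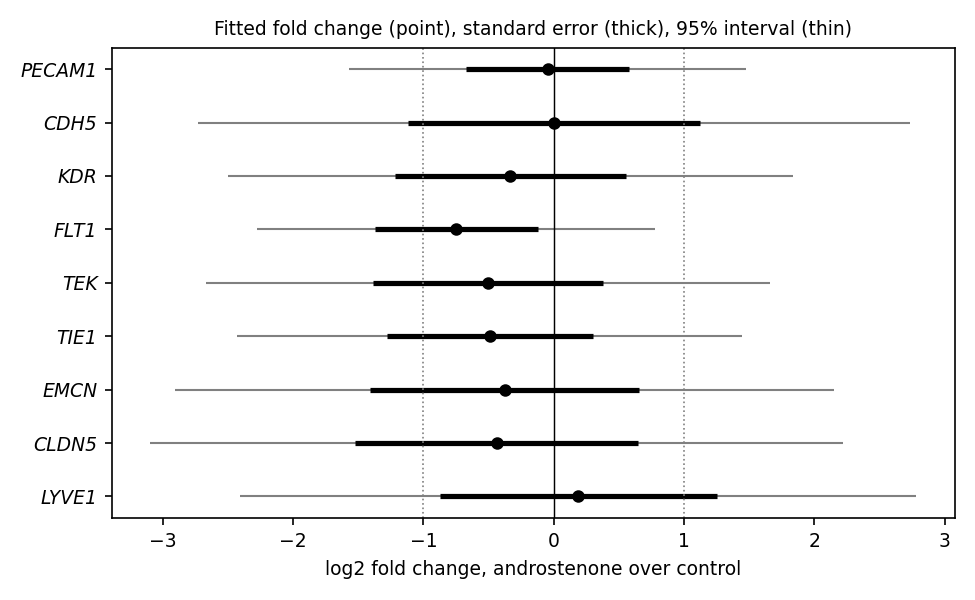
Log2 fold change of each endothelial gene, androstenone over control (horizontal axis), from edgeR's quasi-likelihood fit over 8 libraries. Points are estimates, thick lines 1 standard error and thin lines 95% intervals; dotted lines mark the cutoff of 1. The points lay between -0.75 (FLT1) and 0.19 (LYVE1), and all 9 intervals covered 0.

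Levels of different genes can be compared as transcripts-per-million values (TPM), which the authors scaled for transcript length. PECAM1 had the highest TPM of the 9 genes in 8 of 8 libraries, with a median of 57.9 TPM and a range of 17.4 to 81.0 TPM. CDH5 followed with a median of 18.8 TPM, then TIE1 with 15.5, CLDN5 with 13.7 and KDR with 11.13 TPM. These 4 genes changed places between libraries, since each exceeded the next in the order in only 4 of 8 libraries. KDR exceeded TEK (median 7.66 TPM) in 8 of 8 libraries. TEK exceeded FLT1 (5.21 TPM) in 5 of 8 libraries and FLT1 exceeded EMCN (4.56 TPM) in 6 of 8, so this part of the order was not stable. LYVE1 was last in 8 of 8 libraries with a median of 1.76 TPM.

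The genes did not move by equal factors. TEK followed the mean of the other 8 genes most closely, with an SD of 0.13 over the 8 libraries for its log2 ratio to them, while its own log2 CPM had an SD of 1.60. PECAM1 had an SD of 0.74 for that ratio beside an SD of 1.01 for its own log2 CPM, and FLT1 had 0.69 beside 1.08. Both genes were less reduced than the others in control 3, androstenone 1 and androstenone 2. The TPM ratio of PECAM1 to CDH5 was 3.21, 2.98, 7.57 and 2.20 in control libraries 1 to 4, and 6.87, 16.7, 2.07 and 2.36 in androstenone libraries 1 to 4. The ratio was highest in the 3 libraries where both genes were low. The TPM ratio of the paired receptors TIE1 and TEK stayed between 1.79 and 3.23. Over 6 such ratios (PECAM1, CLDN5, LYVE1 and EMCN to CDH5, FLT1 to KDR, and TIE1 to TEK), exact two-sided permutation tests between the groups gave p from 0.514 to 0.857, all 0.857 after Benjamini-Hochberg adjustment.

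Among the 15936 other genes with a mean of at least 1 CPM, the 10 whose centred log2 CPM profile lay closest to the mean profile of the 9 endothelial genes were GNG11, CD34, RECK, ESAM, EGFL7, RTN4RL2, ROBO4, FLT4, EBF3 and CAV2. The root mean square difference over the 8 libraries ran from 0.15 for GNG11 to 0.24 for CAV2, with a median of 1.52 over all genes compared. CD34, a sialomucin of endothelium and progenitor cells, was at 48.3, 64.7, 8.00 and 76.5 CPM in the control libraries and at 13.9, 6.22, 64.8 and 52.6 CPM in the androstenone libraries. ESAM encodes a junctional adhesion molecule of endothelium, EGFL7 a protein that endothelium secretes, ROBO4 the roundabout receptor of endothelium, and FLT4 VEGF receptor 3. These points share libraries and depth, and the likeness is a description over 8 libraries.

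A further 9 lists of vascular genes held 104 genes beside the members. Of these, 68 had control 3, androstenone 1 and androstenone 2 as their 3 lowest libraries, 5 had them as the 3 highest (TBX1, F11R, OCLN, ICAM2 and BMX), and 31 had neither order. Over all genes tested, these shares were 13.5% for the lowest and 16% for the highest. Between the groups, 4 of the 104 genes were called lower with androstenone (NRP2, ANGPT4, GJA5 and CSPG4) and 0 higher, against 4.38% and 2.04% of all genes tested. The same shares apply to the counts called per list below. An unadjusted p below 0.05 was found for 6 of the 104 genes, against 11.3% of all genes tested. The lowest adjusted p of edgeR's quasi-likelihood test was 0.393. An adjusted p below 0.05 was found for 0 genes by this test, for 1 by edgeR's likelihood ratio test (CSPG4) and for 2 by DESeq2 (CSPG4 and ICAM1). Shares over all genes are not given for these adjusted counts. The median log2 fold change was -0.42, against -0.021 over all genes tested, with 79 genes below 0 and 25 above.

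Among 33 pan-endothelial genes, 0 were called and 27 had the low order of the members. AQP1, the water channel of capillary endothelium, was at 371, 615, 35.9 and 414 CPM in the control libraries and at 80.2, 21.0, 464 and 346 CPM in the androstenone libraries. RAMP2, a partner of the adrenomedullin receptor, ranged over 3.84-fold (18.0 to 69.1 CPM). APLN, the ligand apelin, had the largest fold change of the list, with 4.31, 7.67, 1.28 and 28.0 CPM against 0.754, 0.687, 6.06 and 4.60 CPM. Its log2 fold change of -1.78 ± 1.03 (SE) had an edgeR quasi-likelihood p of 0.120 (adjusted p = 0.526). NOS3, the endothelial nitric oxide synthase, stayed at 18.9 to 26.4 CPM in all 8 libraries, unlike the members, and was picked out after its values were seen.

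Of 10 genes of VEGF ligands and receptors, which include KDR and FLT1, 1 was called lower and 0 higher. VEGFA, the main ligand of KDR, was at 92.2, 72.5, 24.2 and 53.6 CPM in the control libraries and at 31.2, 19.9, 67.8 and 51.4 CPM in the androstenone libraries. VEGFA had the 3 low libraries of its receptors, with a smaller range of 4.63-fold. VEGFB, a ligand of FLT1, varied by only 1.75-fold (46.9 to 81.9 CPM). NRP2, a co-receptor for VEGF-C and semaphorins, was at 23.2, 122, 18.9 and 646 CPM in the control libraries and at 16.0, 15.3, 46.3 and 43.0 CPM in the androstenone libraries. Its log2 fold change of -2.75 ± 1.11 (SE, edgeR quasi-likelihood p = 0.0372, adjusted p = 0.426, exact permutation p = 0.286) rested on control 4, without which it was -0.86 (edgeR p = 0.276). PGF, another ligand of FLT1, was the only 1 of the 104 genes with all androstenone libraries below all control libraries, at 6.84, 7.80, 4.78 and 4.26 CPM against 9.45, 9.06, 8.45 and 14.7 CPM. Its log2 fold change of -0.82 ± 0.29 (SE) was under the cutoff of 1, with an edgeR quasi-likelihood p of 0.0216 (adjusted p = 0.416) and an exact two-sided permutation p of 0.0286, the smallest that 4 against 4 libraries allow. Without control 4 the edgeR p was 0.0596, and in counts summed per sow it was 0.0217 to 0.168. Non-overlap with lower androstenone values was found in 2.64% of all genes tested, and PGF was named after its values were seen.

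Of 8 genes of the angiopoietin-Tie pathway, 1 was called lower. ANGPT4, an angiopoietin that binds TIE2, was at 6.78, 35.2, 3.37 and 35.5 CPM in the control libraries and at 3.25, 2.04, 7.85 and 6.26 CPM in the androstenone libraries. Control 2 and control 4 stood above the other 6 libraries. The fold change of -2.07 ± 0.79 on the log2 scale (SE, edgeR quasi-likelihood p = 0.0294, adjusted p = 0.416, exact permutation p = 0.171) came to -1.65 without control 4 (edgeR p = 0.0815). ANGPT2, the antagonist that endothelium releases, was at 14.6, 13.4, 7.13 and 10.02 CPM in the control libraries and at 3.98, 1.96, 23.6 and 20.4 CPM in the androstenone libraries.

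Of 14 endothelial transcription factors, 0 were called and 10 had the low order of the members. EPAS1, the hypoxia-inducible factor 2 alpha, ranged from 700.2 to 2505 CPM, and LMO2, a bridging factor of blood and endothelial progenitors, from 42.6 to 97.0 CPM, neither in the order of the members. KLF2, a factor induced by blood flow, was at 35.7, 68.4, 19.98 and 57.9 CPM in the control libraries and at 14.2, 11.7, 29.2 and 32.9 CPM in the androstenone libraries. Its log2 fold change was -1.05 ± 0.46 (SE) with an edgeR quasi-likelihood p of 0.0516 (adjusted p = 0.442).

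Of 10 arterial and Notch genes, 1 was called lower and 3 had the low order of the members. GJA5, the gap junction protein connexin 40 of arteries, was at 15.8, 22.9, 9.02 and 141 CPM in the control libraries and at 7.71, 12.3, 11.9 and 17.2 CPM in the androstenone libraries. Its difference of -1.95 ± 0.82 on the log2 scale (SE, edgeR quasi-likelihood p = 0.0438, adjusted p = 0.436, exact permutation p = 0.229) rested on control 4, without which it was -0.37 (edgeR p = 0.357). NOTCH1 and its ligand JAG1 had log2 fold changes of -0.34 ± 0.47 and -0.09 ± 0.45 (SE).

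Of 7 genes of venous endothelium and leukocyte adhesion, 0 were called. ICAM1, the leukocyte adhesion molecule that epithelium and leukocytes also make, was at 45.4, 46.2, 48.7 and 64.0 CPM in the control libraries. It was at 116, 115, 69.7 and 75.2 CPM in the androstenone libraries, all above the control libraries. ICAM1 was the only 1 of the 104 genes with this order, which 3.89% of all genes tested had. The means were 51.1 ± 8.73 CPM and 94.0 ± 25.0 CPM (SD, n = 4 each), with an exact two-sided permutation p of 0.0286. On the log2 scale the difference was 0.88 ± 0.23 (SE), under the cutoff of 1, with an edgeR quasi-likelihood p of 0.00410 (adjusted p = 0.393). The adjusted p of ICAM1 was 0.114 with edgeR's likelihood ratio test and 0.0355 with DESeq2. In counts summed per sow, p was 0.00454 to 0.0902 over the 9 possible pairings. VCAM1, a further leukocyte adhesion molecule, was at 73.5, 112, 15.6 and 67.2 CPM against 24.9, 16.7, 63.7 and 168 CPM, and the groups overlapped (log2 fold change 0.03 ± 0.78, SE). ICAM2 was highest in control 3 (275 CPM), androstenone 1 (154 CPM) and androstenone 2 (152 CPM), the libraries where the members were lowest.

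Among 11 junction genes 0 were called. CTNNB1, the beta-catenin of adherens junctions in many cell types, ranged from 456 to 1129.9 CPM. F11R, a junctional adhesion molecule that epithelium also carries, was highest in control 3 (242 CPM), androstenone 2 (207 CPM) and androstenone 1 (194 CPM). JAM2, its relative in endothelium, was lowest there, at 1.89, 2.12 and 5.31 CPM.

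Among 10 lymphatic genes, 0 were called and 7 had the low order of the members. CCL21, the chemokine of lymphatic endothelium, was at 53.8, 56.9, 4.21 and 26.9 CPM in the control libraries and at 7.37, 0.984, 59.3 and 42.8 CPM in the androstenone libraries. TBX1 ranged from 19.9 to 37.3 CPM with its highest values in the 3 libraries where LYVE1 was lowest. PDPN, podoplanin of lymphatic endothelium and stromal cells, had a log2 fold change of -1.77 ± 0.85 (SE, edgeR quasi-likelihood adjusted p = 0.465, exact permutation p = 0.314).

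Mural cells, the pericytes and smooth muscle cells around vessels, had 14 genes, of which 12 had the low order of the members and 1 was called lower. CSPG4, the pericyte proteoglycan NG2 that cartilage precursors also make, was at 5.75, 21.8, 2.84 and 72.02 CPM in the control libraries and at 0.754, 1.38, 3.12 and 3.73 CPM in the androstenone libraries. The groups overlapped through control 3. On the log2 scale CSPG4 differed by -3.52 ± 1.04 (SE), with an edgeR quasi-likelihood p of 0.00865 (adjusted p = 0.393) and an exact two-sided permutation p of 0.0857. The adjusted p of CSPG4 was 0.0470 with edgeR's likelihood ratio test and 0.00914 with DESeq2. Without control 4 the log2 fold change was -2.18, with an edgeR quasi-likelihood p of 0.0276. The contractile genes ACTA2 and TAGLN had the order of the members, with ACTA2 at 78.7, 433, 30.9 and 236 CPM in the control libraries and 14.4, 5.97, 169.7 and 121 CPM in the androstenone libraries.

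**Figure D3:**
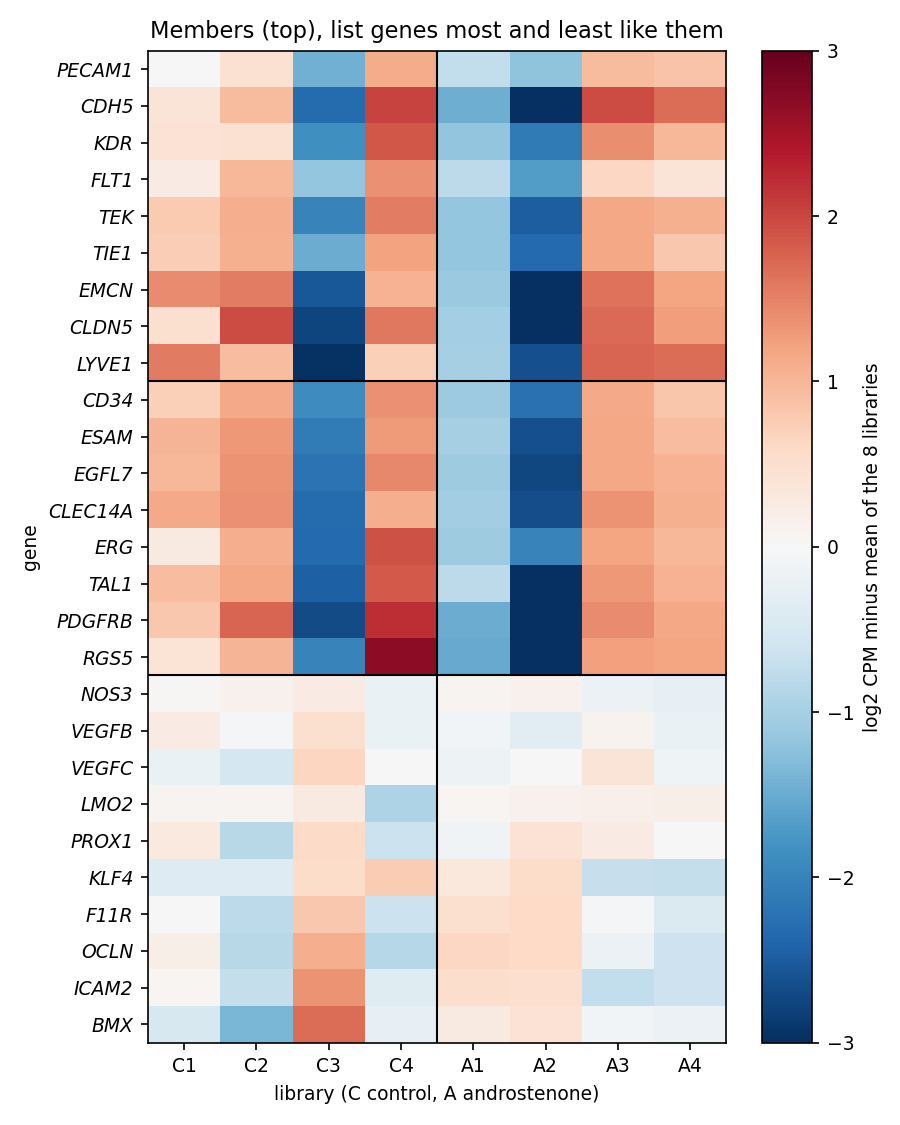
Centred log2 CPM (colour, log2 CPM minus the mean of the 8 libraries, with the scale ending at -3 and 3) of the 9 endothelial genes, of 8 list genes that resembled them and of 10 list genes that did not, by library (C control, A androstenone). The genes of the lower 2 blocks were picked after their values were seen. C3, A1 and A2 were blue in the upper 2 blocks and near white or red in the lowest.

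Lists of other cell types differed in whether they moved with the members, against them or in neither way. The summed CPM of the 9 endothelial genes was 295, 402, 71.1 and 613 for controls 1 to 4, and 117, 67.1, 541 and 459 for androstenone libraries 1 to 4. Of 9 genes of respiratory ciliated cells, 8 had control 3, androstenone 1 and androstenone 2 as the 3 highest libraries. Their summed CPM was 1374, 622, 3197 and 681 for controls 1 to 4, and 2455, 2709.9, 807 and 685 for androstenone libraries 1 to 4. Of 5 genes of sustentacular and basal epithelium, 4 had that order, and the sums ranged from 724 to 2599.9 CPM in the control group and from 1369 to 3162 CPM in the androstenone treatment group. The mural cell sum, in contrast, was lowest in these 3 libraries, as in the members. It ran from 159.6 to 1491 CPM in the control group and from 101.3 to 735 CPM in the androstenone treatment group. For 11 macrophage genes the sums ranged from 309.6 to 1428 CPM and from 317 to 939 CPM, and 4 genes had the low order. Fibroblast genes had the low order in 6 of 8 cases, with sums of 2518, 12610.5, 575 and 36423 CPM for controls 1 to 4, and of 736, 787, 4356 and 4123 CPM for androstenone libraries 1 to 4. Cartilage genes had it in 5 of 7 cases, with sums of 68.1 to 3169.9 CPM (control 4) in the control group and 26.8 to 137 CPM in the androstenone treatment group. Of these 7 genes, 4 were called lower by edgeR's quasi-likelihood test, against 4.38% of all genes tested, none with an adjusted p below 0.393. An adjusted p below 0.05 was found for 2 of them by edgeR's likelihood ratio test and for 3 by DESeq2. Of 7 platelet genes, 2 had the low order, and their sum was 29.2 to 76.8 CPM in all libraries but control 4, where ITGB3 alone was at 466 of 488 CPM. None of 6 leukocyte, 7 erythroid and 6 nasal gland genes had the low or the high order. Of 8 olfactory neuron genes tested, 1 had the low order and 1 the high order. The part of these lists in the endothelial levels was not tested.

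**Figure D4:**
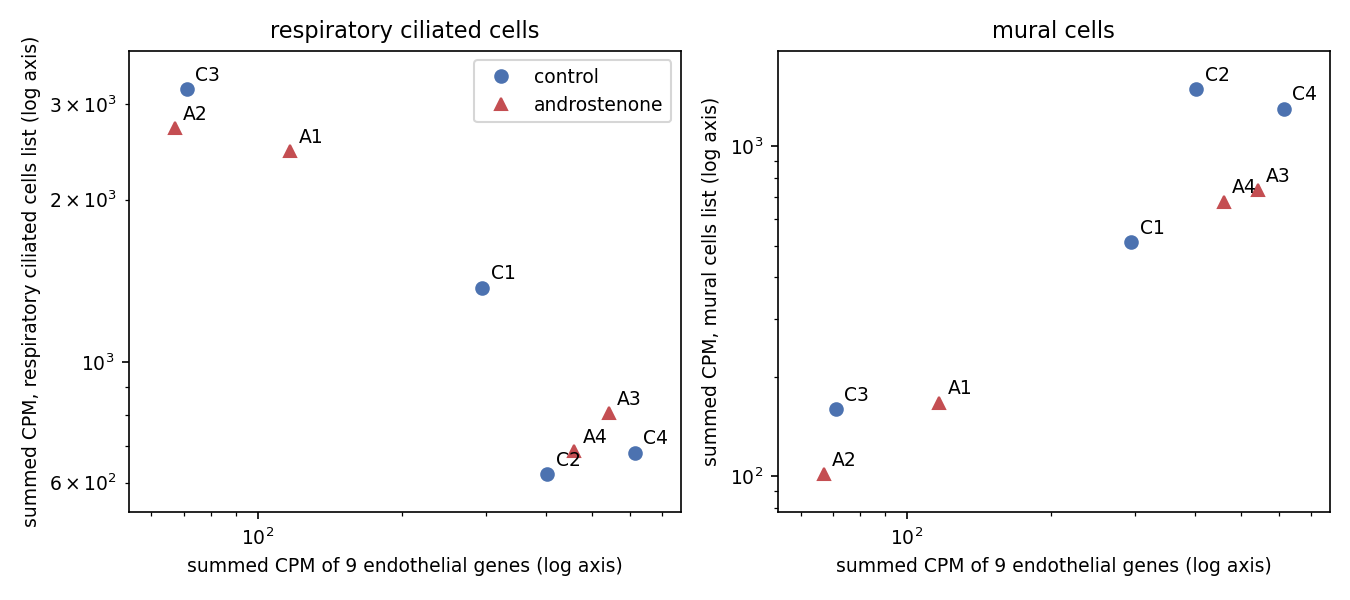
Summed CPM of 9 respiratory ciliated cell genes (left) and 14 mural cell genes (right) against the summed CPM of the 9 endothelial genes, both axes logarithmic, with 1 point per library (blue circles control, red triangles androstenone). C3, A1 and A2 had the lowest endothelial sums (67.1 to 117 CPM) with the highest ciliated sums and the lowest mural sums.

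All 10 bone genes were called lower with androstenone by edgeR's quasi-likelihood test (10 of 10, against 4.38% of all genes tested), none with an adjusted p below 0.393. DESeq2 called 3 of them and gave no p for the other 7. An adjusted p below 0.05 was found for 1 of the 10 by DESeq2 and for 1 by the likelihood ratio test of edgeR. None of the 10 had the low order of the members. They summed to 6369, 25446, 6455 and 324940 CPM in control libraries 1 to 4, and to 1839, 8386, 4218 and 4215 CPM in androstenone libraries 1 to 4. The part of the bone and cartilage genes in the levels of NRP2, ANGPT4, GJA5 and CSPG4, which were all highest in control 4, was not tested.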

How the data were processed

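Per the submitters' processing notes and the methods, the authors filtered reads with fastp 0.23.1. Transcript abundance was estimated with kallisto 0.48.0 against Sscrofa11.1 transcripts (Ensembl release 108), and the step from transcripts to genes is not stated. The authors deposited estimated counts, not normalized, and TPM values, scaled for transcript length and depth. Gene names came from a table that matched 15527 of 22516 identifiers, and coordinates from the RefSeq annotation of Sscrofa11.1.

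Estimated counts were rounded, genes with at least 1 count were kept (21318), and groups were compared with edgeR 4.0.16 in R 4.3.3 (TMM, quasi-likelihood test, all 8 libraries, no covariate), with Benjamini-Hochberg adjustment over all genes. Single values were compared with exact two-sided permutation tests over 70 assignments. Intervals use the derived SE with 6 degrees of freedom, while the quasi-likelihood p uses the test's own degrees of freedom. An interval and a p-value near the cutoff can therefore disagree. Alternatives used DESeq2 1.42.0 and limma 3.58.1. The script was run on simulated data with 200 changed genes, a common dispersion and independent libraries. The libraries here share animals, so that run checks the code and not the error rates in these data. No 2 libraries were identical within sampling noise.

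The members, lists and tests were chosen with earlier results of these data known. The named genes are the members and, per vascular list, the genes called, the 2 of highest mean TPM and the 1 of largest fold change (mean of at least 1 CPM), plus the 10 nearest profiles. Genes outside this rule are marked where named.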

Additional observations from a re-analysis of the deposited data

Results flagged for a closer look

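In a Dixon test of the highest or lowest of the 4 libraries (at its 95% critical value), 3 of 30 groups of values over the 9 endothelial genes and 6 vascular genes (the 4 called, ICAM1 and PGF) had a library far from the other 3. Chance gives about 1 in 20 groups, but the 6 vascular genes were picked because they differed between the groups, so the count is a description and no test. All 3 were control 4. NRP2 was at 646 CPM in control 4, with a gap to the nearest control library of 0.835 of the range. GJA5 was at 141 CPM there, with a gap of 0.895. PGF was at 14.7 CPM there, with a gap of 0.841. None of the 9 endothelial genes had such a library in either group.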

How the results depend on the processing

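The count of endothelial genes called was 0 in 19 alternatives run on the libraries and in the counts summed per sow over 9 pairings. The median log2 fold change of the 9 genes ran from -0.96 to 0.012 in the 19 alternatives and from -0.63 to 0.019 over the pairings. EMCN, FLT1 and TIE1 kept a fold change below 0 in all 19 alternatives run for them, and none was called. Their lowest values were -1.03, -1.09 and -1.02, past the fold change cutoff but without an unadjusted p below 0.05. The sign of the others changed. CDH5 was at -0.023 with DESeq2, -0.026 with RLE normalization, -0.0072 with filterByExpr, -0.47 with limma on log2(TPM + 1) with or without a mean TPM of at least 0.1, -0.61 on log2(TPM + 0.1), -0.88 with the replicate block and -0.63 to 0.73 with 1 library left out. LYVE1 was at -0.072 on log2(TPM + 1), filtered or not, -0.20 on log2(TPM + 0.1), -0.41 with the replicate block and -0.31 to 0.56 with 1 library left out. PECAM1 was at 0.12 with library totals only, and KDR at 0.63, PECAM1 at 0.41 and TEK at 0.012 with both control 1 and control 4 left out, which was added after seeing the data. With 1 library left out, PECAM1 ran from -0.38 to 0.38, KDR from -0.91 to 0.40 and CLDN5 from -1.09 to 0.038. The cause was not tested.

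The count of vascular list genes called was 4 of 104, against 6.42% of all genes in either direction. It was 8 with DESeq2 and 8 with the likelihood ratio test, against 6.98% and 9.28% of all genes. It was 2 with each of the 3 limma fits on TPM, 1 with the replicate block and 2 without control 1 and control 4. With 1 library left out it was 1 to 10 (10 without control 3, 1 without androstenone 1 or androstenone 2, 2 without androstenone 3). Shares over all genes are not given for the limma, block and left-out fits. Their counts therefore cannot be told apart from changes over all genes. A fit with the mean profile of the members as a covariate was added after seeing the data. It called 5 of the vascular list genes, all lower (APLN, ANGPT4, PDPN, CSPG4 and ACTA2), against 5.43% of all genes in either direction. CSPG4 was called in all 20 alternatives, ANGPT4 in 11, and NRP2 and GJA5 in 9 each. The alternatives reuse the same libraries as replicates, and CSPG4, ANGPT4, NRP2 and GJA5 were not tested in counts summed per sow. ICAM1 passed the cutoff only without control 4 (1.00). The replicate numbers did not pair the libraries: the correlations of same-numbered deviations were -0.052, -0.58, -0.67 and 0.20, and no library correlated best with its own number. The low count total limits control 1, where 3 counts are 0.718 CPM.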
